A study of Mus musculus with 9 samples.

Results

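The genes described here are 10 neighbours of the extended major histocompatibility complex (MHC) class II region on mouse chromosome 17: Daxx, Zbtb22, Rgl2, Pfdn6, Wdr46, B3galt4, Vps52, Ring1, Slc39a7 and Rxrb. They were taken by name as neighbours of Rgl2, which had itself been selected on its measured RNA difference between Clic1 knockout (KO) and wild-type (WT) mice in these data. All 10 were found among the 14351 genes of the deposited table. Because the set was drawn around a measured difference, the KO and WT values of its members are given below as a description, with no p-value, and their counts past a threshold support nothing.

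The extended class II region is a gene-dense stretch beside the genes that present antigen, but most of its own genes have no role in antigen presentation. They serve Ras signalling, chromatin, nuclear receptor signalling, protein folding, ribosome assembly, vesicle transport, glycolipid synthesis and zinc transport, tasks found in most cell types, neurons and glia included. In mice the class I gene H2-K1 lies among them. Clic1, which encodes chloride intracellular channel 1, lies further along the same chromosome, 1.12 Mb from Rgl2, in the class III part of the MHC.

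Hypothalamic RNA was sequenced from 5 KO and 4 WT mice, 1 library each, numbered 2, 4, 6, 8 and 10 in the KO group and 1, 3, 9 and 11 in the WT group. Per the labels all were male. That each library is a separate mouse is inferred from the separate sample labels. The study's methods describe a whole-body Clic1 knockout on a CD-1 background with WT littermates on normal chow, whereas the labels give the strain as C57b/6J. The age of these mice is not given in the sources used here. Replicate 10 carries conflicting labels. Its description names it with the KO libraries while its title and treatment label read WT, so it was grouped with KO here, and the difference of each member is also given without it.

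Library totals estimated from the steps between low values were 5.45 to 20.8 M reads in KO and 7.28 to 11 M in WT mice, the highest being replicate 10. That library also stood apart, with a median Spearman correlation to the others of 0.9743, whereas the lowest single pair among the rest reached 0.9891. Levels are the authors' normalized counts per M reads (CPM). Clic1 was below each WT library in every KO library, replicate 10 included, with means of 1.33 ± 0.429 CPM over the 5 KO and 4.77 ± 0.868 CPM over the 4 WT mice (± SD). Replicate 10 held 1.43 CPM of Clic1, where KO libraries ran from 0.733 to 1.93 CPM and the lowest WT library held 3.58 CPM. Its Clic1 level is thus that of a KO library. Fits with it as WT are given only because of its title and treatment label. On the log2 scale it fell by 1.80 (standard error, SE, 0.27, limma adjusted p = 0.0153), and the adjusted p was 0.0893, 0.0826 and 0.0702 in limma without WT replicate 1, 3 or 9. Of 14 hypothalamic marker genes 13 were in the table, of which Avp passed the limma threshold, and their summed CPM ran from 748 to 951 in KO libraries and from 695 to 740 in WT libraries. Of 8 adipose markers, relevant because the treatment protocol text of the samples names adipose tissue, only Lipe was listed, and Adipoq, Lep, Plin1, Cidec, Fabp4, Retn and Cfd were not in the table. The blood markers Hba-a1, Hba-a2, Hbb-bs and Hbb-bt and the choroid plexus markers Ttr and Folr1 were missing too. Absence from the table is therefore not read as absence from the tissue. The 4 endothelial markers summed to between 140 and 160 CPM in KO libraries and between 133 and 139 CPM in WT libraries, and none of them passed the limma threshold. Summed markers of neurons, astrocytes, oligodendrocytes, microglia, ependyma, blood, choroid plexus and immune cells overlapped between the groups. The part of these differences in the values below was not tested. In whole tissue, fewer cells of a type and less RNA per cell cannot be told apart.

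On GRCm38 the 10 genes span 129 kb, from the start of Daxx at 33909414 to the end of Rxrb at 34038399 of chromosome 17. The first 7, Daxx to Vps52, fill 57.6 kb. A gap of 53.8 kb that holds H2-K1 separates Vps52 from Ring1, and Ring1, Slc39a7 and Rxrb fill the last 17.6 kb. On the plus strand lie 6 members and on the minus strand 4. Several are packed so closely that they share a start region. Pfdn6 and Wdr46 run apart from starts 316 bases from each other, Slc39a7 and Rxrb from starts 129 bases from each other, and the start of Vps52 overlaps that of the ribosomal protein gene Rps18 by 190 bases. Rgl2 and Pfdn6 end toward one another with 1133 bases between them.

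The RefSeq promoter windows on GRCm38.p6, each covering 250 bases before and 50 bases after a start, gave 16 windows for the 10 members. They held 16 to 47 CpG dinucleotides each, against a median of 7 (interquartile range 3 to 20) over 32851 windows of all genes. Shown first are the windows of Rgl2 and Ring1, the 2 members whose KO and WT libraries did not overlap, and then the stretches shared by genes that start back to back. Each line runs 5′ to 3′, and capitals mark the GC box letters GGGCGG and the ETS core letters CGGAAG on either strand, which overlap once in the Ring1 window, at bases 256 to 264. Rgl2 is on the plus strand of chr17:33929644-33929943 and Ring1 on the minus strand of chr17:34024631-34024930. The shared stretches are given on the plus strand, at chr17:33940473-33940593 for Pfdn6 and Wdr46, chr17:33955632-33955915 for Rps18 and Vps52 and chr17:34031641-34031861 for Slc39a7 and Rxrb.
Rgl2: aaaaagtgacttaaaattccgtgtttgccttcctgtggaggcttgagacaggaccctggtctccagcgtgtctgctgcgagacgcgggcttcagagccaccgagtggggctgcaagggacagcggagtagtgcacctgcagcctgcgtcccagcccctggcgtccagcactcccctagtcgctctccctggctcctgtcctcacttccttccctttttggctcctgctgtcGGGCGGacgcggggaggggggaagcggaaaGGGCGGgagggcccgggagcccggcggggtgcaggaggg
Ring1: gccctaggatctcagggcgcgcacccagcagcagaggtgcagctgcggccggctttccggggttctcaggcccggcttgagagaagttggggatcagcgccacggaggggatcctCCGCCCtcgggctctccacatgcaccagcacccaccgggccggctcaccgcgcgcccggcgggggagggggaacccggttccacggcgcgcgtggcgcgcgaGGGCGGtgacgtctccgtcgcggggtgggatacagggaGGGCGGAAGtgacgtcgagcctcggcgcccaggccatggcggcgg
Pfdn6 and Wdr46: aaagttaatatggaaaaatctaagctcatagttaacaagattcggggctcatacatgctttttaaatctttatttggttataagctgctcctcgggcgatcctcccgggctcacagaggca
Rps18 and Vps52: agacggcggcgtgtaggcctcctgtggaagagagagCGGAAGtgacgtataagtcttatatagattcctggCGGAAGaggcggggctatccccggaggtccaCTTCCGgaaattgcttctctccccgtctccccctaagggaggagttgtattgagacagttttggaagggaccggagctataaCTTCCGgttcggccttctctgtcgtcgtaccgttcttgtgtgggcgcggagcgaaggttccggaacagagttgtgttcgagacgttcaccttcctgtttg
Slc39a7 and Rxrb: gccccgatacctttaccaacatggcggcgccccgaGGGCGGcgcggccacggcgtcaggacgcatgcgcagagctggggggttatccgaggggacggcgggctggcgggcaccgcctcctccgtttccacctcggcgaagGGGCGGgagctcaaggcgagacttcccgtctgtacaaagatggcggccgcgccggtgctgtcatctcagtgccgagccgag
The Rgl2 window held 2 GC boxes, and the Ring1 window held 3 GC boxes and 1 ETS core. The stretch between Rps18 and Vps52 held 4 ETS cores and no GC box, that between Slc39a7 and Rxrb held 2 GC boxes, and that between Pfdn6 and Wdr46 held neither. Counted over any of their windows, 8 of the 10 members had the ETS core letters and 6 the GC box, compared with 16.9% and 35.7% of single windows of all genes. The letters CCAAT were in a window of 3 members (37.4% of all windows), CACGTG in 1 (7.15%) and TATAAA in 0 (13.6%). These are matches of letters in a window and show no binding.

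Among the 10 members 8 had a higher mean in KO than in WT mice and 2, Pfdn6 and Vps52, a lower mean. The median log2 fold change was 0.195 (interquartile range 0.117 to 0.208), beside 0.00089 (-0.0873 to 0.0995) over all genes, of which 50.4% were higher in KO. Without Rgl2 the median of the other 9 was 0.194. With replicate 10 as WT, as its title reads, the median of the 10 was 0.074. At an adjusted p under 0.05 in limma 1 member passed, Rgl2, the gene around which the set was drawn, beside 0.286% of all genes. It also passed in the 9 fits that each omitted a mouse, and it did not pass with replicate 10 as WT. At an unadjusted p under 0.05 there were 2, Rgl2 and Ring1, beside 6.5% of all genes. These 2 were also the members whose KO libraries all lay above every WT library, beside 1.67% of all genes. Nothing is read from these counts, or from the fits of Rgl2 with a mouse omitted, since the same contrast chose Rgl2 and the set. Estimated reads behind a member's value ran from 20 (B3galt4) to 1969 (Slc39a7) per library.

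**Figure D1:**
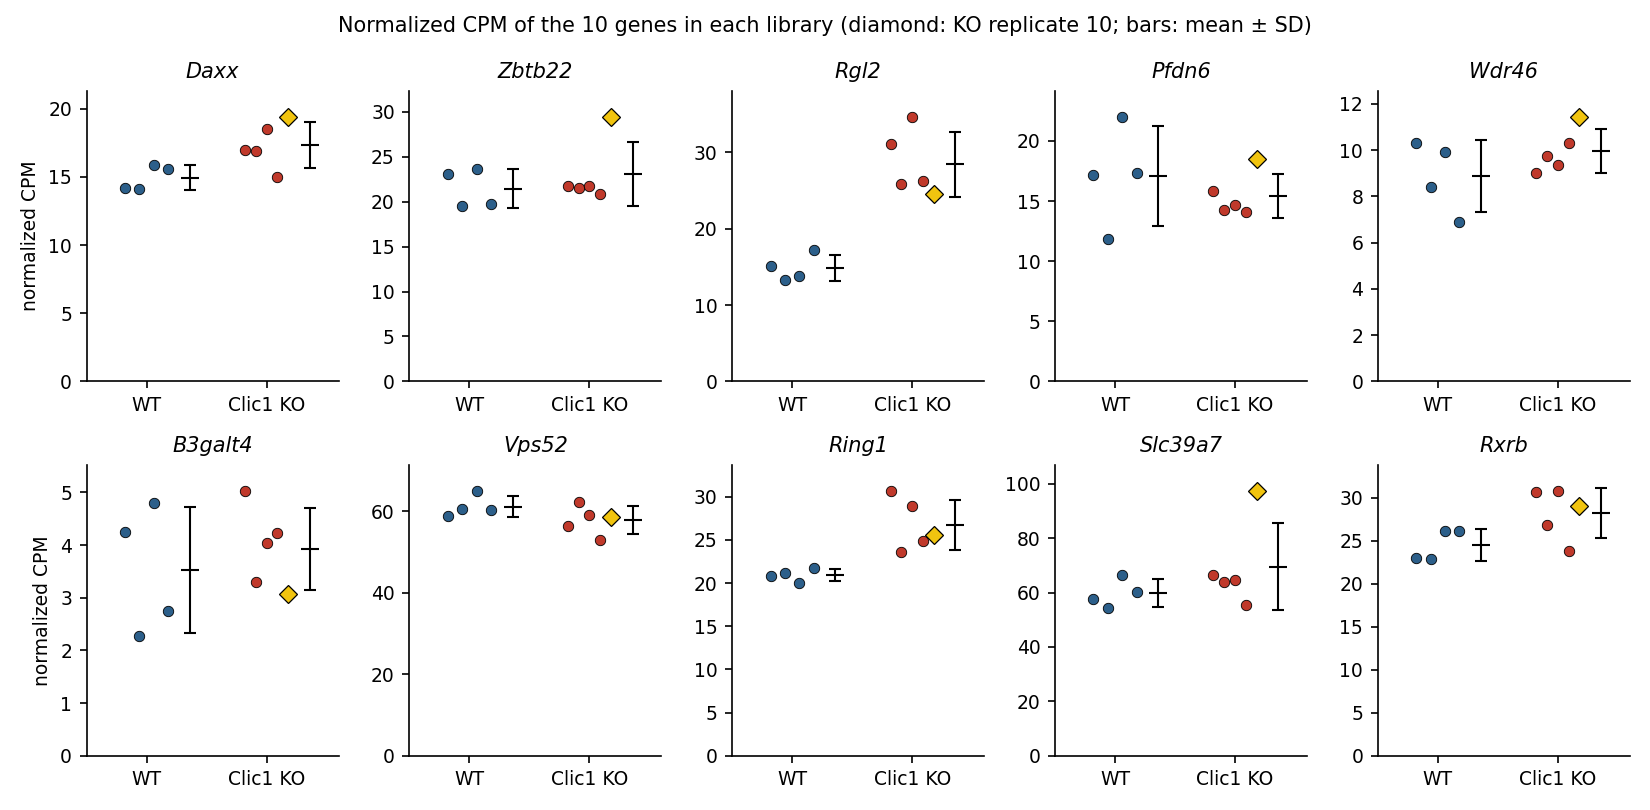
Normalized CPM (vertical axis, from 0, scaled to each gene) of the 10 genes in 4 WT libraries (blue) and 5 Clic1 KO libraries (red, with replicate 10 as a yellow diamond); bars are the mean ± SD. The groups are apart for Rgl2 and Ring1 and share values for the others, and replicate 10 lies above the other KO libraries for Zbtb22 (29.4 CPM) and Slc39a7 (97.4 CPM).

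Rgl2 (ENSMUSG00000041354, chromosome 17, 33929543 to 33937687, plus strand) encodes a guanine nucleotide exchange factor that links active Ras to the RAL GTPases, which act in vesicle delivery and membrane traffic. The KO libraries, from replicate 2 through 4, 6 and 8 to 10, held 31.04, 25.8, 34.6, 26.3 and 24.5 CPM. The WT libraries, from replicate 1 through 3 and 9 to 11, held 15.1, 13.3, 13.8 and 17.2 CPM, an order kept for the genes below. The lowest KO library was well above the highest WT library, and the libraries with the most Rgl2 were KO replicates 6 and 2. KO mice averaged 28.5 ± 4.24 CPM (n = 5, ± SD) and WT mice 14.9 ± 1.76 CPM (n = 4, ± SD), a ratio of 1.92. On the log2(CPM + 0.1) scale the difference was 0.93 (SE 0.12), higher than 99.4% of all genes. It was 0.98 without replicate 10 and 0.83 with that library as WT, and ran from 0.86 to 1.002 over the fits that each omitted a mouse. Behind these values stood an estimated 125 to 495 reads per library. No transcript of another gene matched the longest Rgl2 transcript at 95% identity or more, and no annotated gene shared its exons.

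The other genes of the RAL pathway moved little on balance. All 13 listed genes (the other exchange factors, the RAL GTPases, their GTPase-activating complexes and exocyst effectors) were in the table, 6 higher and 7 lower in KO, with a median log2 fold change of -0.04. Rgl1, a paralogue of Rgl2 with the same biochemical activity and a gene on chromosome 1, fell in KO mice. It was the 1 of the 13 past the threshold, beside 0.286% of all genes. KO libraries held 75.98, 77.5, 80.04, 80.4 and 88.7 CPM and WT libraries 111, 110, 106 and 103 CPM. The groups did not overlap, and the log2 fold change was -0.42 (SE 0.06, limma adjusted p = 0.0184). That call was close to the threshold. Over the 9 fits that each omitted a mouse, the limma adjusted p ran from 0.000216 to 0.115 and passed in 1, the fit without KO replicate 10, while the log2 fold change held from -0.45 to -0.399. With replicate 10 as WT, or with no trend in the variance model, Rgl1 did not pass. Rala and Ralb, the GTPases themselves, had log2 fold changes of -0.09 and 0.13, and Ralgds, the founding exchange factor, of -0.04 (adjusted p of 0.883, 0.88 and 0.921 in limma).

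Of the 4 members that act on chromatin or transcription, Ring1 had the next largest difference after Rgl2. Ring1 (ENSMUSG00000024325, 34020792 to 34024680, minus strand) encodes an E3 ligase of polycomb repressive complex 1 (PRC1), which ubiquitinates histone H2A at silenced genes. The 5 KO libraries held 30.7, 23.6, 28.9, 24.9 and 25.6 CPM and the 4 WT libraries 20.8, 21.1, 20 and 21.8 CPM. All KO values were above all WT values, but the gap between the nearest libraries was small, 23.6 against 21.8 CPM. KO mice averaged 26.7 ± 2.95 CPM (n = 5, ± SD) and WT mice 20.9 ± 0.735 CPM (n = 4, ± SD), with a log2 fold change of 0.35 (SE 0.10) that was 0.36 without replicate 10 and 0.30 with it as WT. The WT libraries were close together for Ring1, with a coefficient of variation of 3.51%, whereas that of the KO libraries was 11.03%.

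Among 18 other PRC1 genes, 7 were higher and 11 lower in KO mice, with a median of -0.02. In limma none passed the threshold and 1 had an unadjusted p under 0.05, beside 6.5% of all genes.

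Daxx (ENSMUSG00000002307, 33909414 to 33915590, plus strand), the histone H3.3 chaperone that works with ATRX and gathers in PML bodies, had 17, 16.9, 18.5, 15.0 and 19.4 CPM in KO and 14.2, 14.1, 15.9 and 15.6 CPM in WT libraries. KO replicate 8 lay among the WT values and the other 4 KO libraries lay above them. Daxx differed by a log2 fold change of 0.21 (SE 0.10), 0.17 without replicate 10 and 0.10 with it as WT. Of 11 listed H3.3 chaperone and PML body genes 10 were in the table, and KO mice had more of 4 and less of 6. None had an unadjusted p under 0.05 in limma. The smallest p was that of Hira, another H3.3 chaperone, with a log2 fold change of 0.16 (SE 0.13, limma adjusted p = 0.862) that was 0.04 without replicate 10 and -0.09 with it as WT.

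Rxrb (ENSMUSG00000039656, 34031812 to 34038399, plus strand) encodes retinoid X receptor beta, the shared partner of thyroid hormone, retinoic acid and other nuclear receptors. CPM values were 30.7, 26.9, 30.8, 23.8 and 29.0 in KO and 23.0, 22.9, 26.1 and 26.2 in WT libraries. As for Daxx, KO replicate 8 lay within the WT range and the other 4 KO libraries above it. The log2 fold change of Rxrb was 0.20 (SE 0.10), 0.19 without replicate 10 and 0.14 with it as WT. Of 18 partner receptors and coregulators 16 were in the table, 9 higher and 7 lower, with a median of 0.02. None passed the threshold in limma. Beside 6.5% of all genes, 1 had an unadjusted p under 0.05. This was Thra, a thyroid hormone receptor, with a mean of 424 ± 71.4 CPM in the 5 KO and 350 ± 15.8 CPM in the 4 WT mice (± SD, log2 fold change 0.26, SE 0.10, limma adjusted p = 0.688), its KO mean including 551 CPM in replicate 10. The log2 fold change of Thra was 0.17 without that library.

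Zbtb22 (ENSMUSG00000051390, 33915904 to 33919325, plus strand), a zinc finger protein with a BTB domain and a presumed transcription factor, had 21.8, 21.5, 21.8, 20.8 and 29.4 CPM in KO and 23.1, 19.5, 23.6 and 19.7 CPM in WT libraries. Apart from replicate 10 every KO library lay inside the WT range. The log2 fold change of 0.10 (SE 0.12) was 0.01 without replicate 10 and was -0.09 with it as WT. Zbtb22 shares 149 exon bases (5.57% of its own) with the peptide-loading gene Tapbp on the same strand, and reads there could be counted for either gene. Among 39 other genes named Zbtb, 18 were higher and 21 lower, and none passed the threshold in limma. Beside 6.5% of all genes, 1 had an unadjusted p under 0.05. That was Zbtb16, with a mean of 25.7 ± 1.98 CPM in the 5 KO and 20.3 ± 1.62 CPM in the 4 WT mice (± SD, log2 fold change 0.34, SE 0.09, limma adjusted p = 0.378).

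The 2 members that serve the folding of new proteins and the making of ribosomes had overlapping groups. Pfdn6 (ENSMUSG00000024309, 33938821 to 33940343, minus strand) encodes a subunit of prefoldin, which hands unfolded actin and tubulin to the chaperonin CCT. Its CPM was 15.8, 14.2, 14.7, 14.1 and 18.5 in KO and 17.2, 11.8, 22.0 and 17.4 in WT libraries. All KO values lay inside the WT range, which was set by WT replicates 3 and 9. For Pfdn6 the log2 fold change was -0.12 (SE 0.16), -0.18 without replicate 10, -0.28 without WT replicate 3 and 0.02 without WT replicate 9. WT libraries varied by 24.4% (coefficient of variation) for Pfdn6, whereas the median over 4506 genes of like level was 10.02%. An antisense gene shares 78 exon bases of Pfdn6, and since the strand setting of the counting is not given in the sources used here, reads of both may be mixed there.

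Of 13 other prefoldin and CCT genes 11 were higher in KO and 2 lower, with a median log2 fold change of 0.10. None passed the threshold in limma. Beside 6.5% of all genes, 1 had an unadjusted p under 0.05. This was Vbp1, a prefoldin subunit and 1 of the 2 lower genes, with a mean of 46.2 ± 4.47 CPM in the 5 KO and 53.4 ± 2.995 CPM in the 4 WT mice (± SD, log2 fold change -0.21, SE 0.08, limma adjusted p = 0.703).

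Wdr46 (ENSMUSG00000024312, 33940660 to 33949697, plus strand), which starts back to back with Pfdn6, encodes a nucleolar scaffold of the small subunit processome. It had 9.02, 9.75, 9.34, 10.3 and 11.4 CPM in KO and 10.3, 8.39, 9.90 and 6.89 CPM in WT libraries. Most libraries of both groups fell in the same range, with WT replicate 11 the lowest and KO replicate 10 the highest. The log2 fold change of 0.18 (SE 0.14) was 0.13 without replicate 10, 0.05 with it as WT and 0.06 to 0.26 as single mice were omitted. Of 27 listed processome genes 26 were in the table, 19 higher and 7 lower in KO, with a median of 0.06 and none with an unadjusted p under 0.05 in limma. The smallest p was that of Bms1, a GTPase of ribosome assembly, with a log2 fold change of 0.23 (SE 0.12, limma adjusted p = 0.788) that was 0.14 without replicate 10 and 0.02 with it as WT.

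The last 3 members act in the secretory and endosomal system. Slc39a7 (ENSMUSG00000024327, 34028269 to 34031682, minus strand) encodes a zinc transporter that releases zinc from the endoplasmic reticulum. CPM was 66.5, 64.0, 64.5, 55.6 and 97.4 in KO and 57.6, 54.5, 66.5 and 60.4 in WT libraries. Replicate 10 was far above the rest, and the other 4 KO libraries lay inside the WT range. With all libraries the log2 fold change was 0.20 (SE 0.14). It was 0.07 without replicate 10 and -0.07 with it as WT, so that its direction followed the grouping of 1 library. A processed transcript, Gm20427, covers 2084 exon bases of Slc39a7 (80.7%) on the same strand and was not in the table. How reads were divided between them was not tested.

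Of 21 other zinc transporter genes, 8 were higher and 13 lower in KO, and none passed the threshold in limma. In this list 1 gene had an unadjusted p under 0.05, beside 6.5% of all genes. The 1 gene with an unadjusted p under 0.05 was Slc39a12, with a mean of 79.8 ± 7.98 CPM in the 5 KO and 91.7 ± 5.06 CPM in the 4 WT mice (± SD, log2 fold change -0.21, SE 0.08, limma adjusted p = 0.714).

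Vps52 (ENSMUSG00000024319, 33955812 to 33967035, plus strand) encodes a subunit of the GARP and EARP tethers, which catch vesicles that return from endosomes. Its libraries varied little, by 5.88% in KO and 4.27% in WT mice (coefficient of variation), at 56.4, 62.2, 59.0, 53.0 and 58.5 CPM in KO and 58.9, 60.4, 64.9 and 60.3 CPM in WT libraries. Of the KO libraries 3 lay below every WT library and 2 among them. The log2 fold change was -0.08 (SE 0.07) with all libraries, was -0.09 without replicate 10, and kept within -0.11 to -0.05 as single mice were omitted. The opposite-strand gene Rps18 shares 156 exon bases with Vps52, which is 3.93% of the exon bases of Vps52. Among 10 tethering partners in the table (of 11 listed) 6 were higher and 4 lower, none with an unadjusted p under 0.05 in limma. The smallest p was that of Eipr1, a protein that binds both tethers, with a log2 fold change of 0.14 (SE 0.11, limma adjusted p = 0.857) that was 0.09 without replicate 10.

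B3galt4 (ENSMUSG00000067370, 33949909 to 33951488, minus strand) encodes a galactosyltransferase of ganglioside synthesis, the glycolipids that are abundant in neuronal membranes. It was the lowest member, at 5.02, 3.295, 4.03, 4.22 and 3.07 CPM in KO libraries and 4.25, 2.28, 4.8 and 2.76 CPM in WT libraries. The groups shared most of their range. The log2 fold change of 0.19 (SE 0.24) rested on an estimated 20 to 62 reads per library and was smaller than its SE. It was 0.275 without replicate 10, 0.01 without WT replicate 3 and 0.36 without WT replicate 9. It was the 1 member below a mean of 5 CPM. Of 11 other ganglioside synthesis genes 3 were higher and 8 lower, none with an unadjusted p under 0.05 in limma. St3gal1, a sialyltransferase, had the smallest p of the list, with a log2 fold change of -0.27 (SE 0.18, limma adjusted p = 0.835) that was -0.10 without replicate 10 and 0.09 with it as WT.

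**Figure D2:**
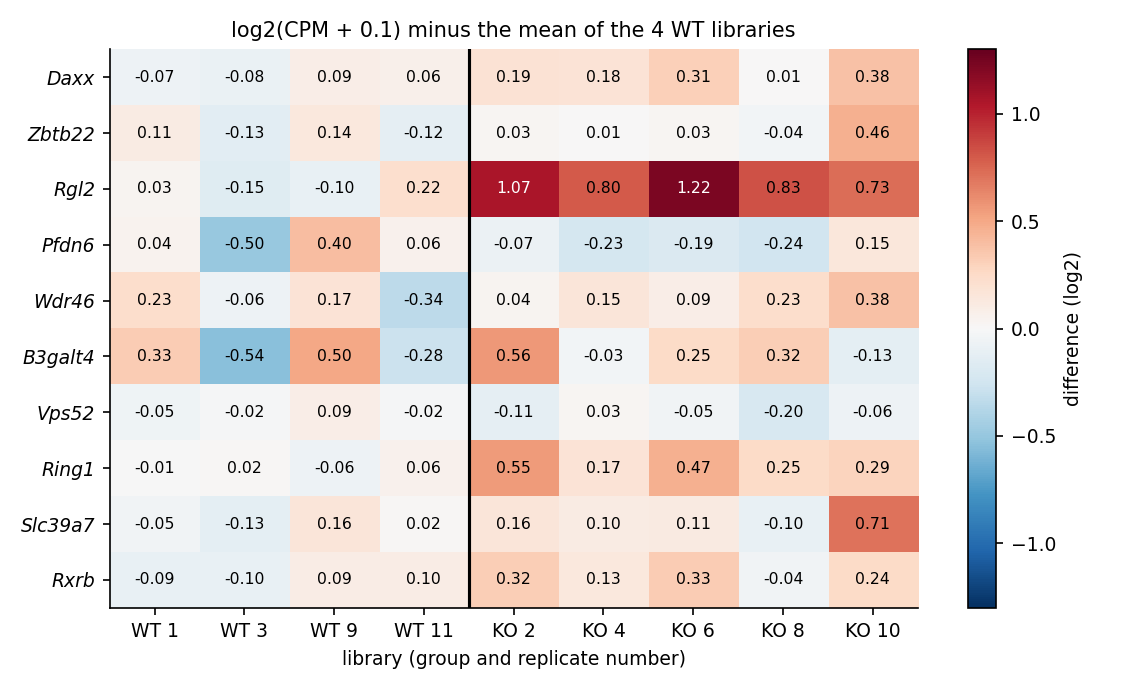
Difference on the log2(CPM + 0.1) scale of each library (columns) from the mean of the 4 WT libraries, for the 10 genes in chromosome order (rows); red is above and blue below that mean. All 5 KO libraries are above it for Daxx, Rgl2, Wdr46 and Ring1, and the KO values of Rgl2 run from 0.73 to 1.22.

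The KO libraries did not deviate in the same way across the 10 genes. Replicates 2 and 6 had the 2 highest KO values of Rgl2, Ring1 and Rxrb. Replicate 10 had the highest KO value of 5 members (Daxx, Zbtb22, Pfdn6, Wdr46 and Slc39a7) and the lowest of 2, Rgl2 and B3galt4. Replicate 8 was the lowest KO library for 6 members. Among WT libraries, replicate 9 was the highest for 6 members and replicate 3 the lowest for 7. Each value is a share of its library's total, so values of 1 library are not independent, and these counts are a description.

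Ordered by level, the members covered about an order of magnitude. On the scale of CPM per kb of the longest transcript, Slc39a7 led the WT libraries at 24.6 ± 2.09 (SD, n = 4), followed by Pfdn6 at 19.6 ± 4.78 and Vps52 at 18.1 ± 0.772. The ranges of these 3 overlapped from each to the next. Rxrb came next at 9.34 ± 0.704, with no value as high as the lowest of Vps52. Zbtb22 at 8.22 ± 0.832 and Ring1 at 8.20 ± 0.288 had all but the same WT mean per kb, and both overlapped with their neighbours in this order except toward Daxx. Daxx at 5.59 ± 0.347, Rgl2 at 4.57 ± 0.541 and Wdr46 at 3.98 ± 0.699 formed a lower run of overlapping neighbours, and B3galt4 was lowest at 2.23 ± 0.757, with no value as high as the lowest of Wdr46. The order in KO mice differed only in the middle. Rgl2 stood at rank 8 of the 10 in WT and at rank 7 in KO mice (8.75 ± 1.31, SD, n = 5), where its level per kb was near that of Zbtb22 (8.83 ± 1.37).

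**Figure D3:**
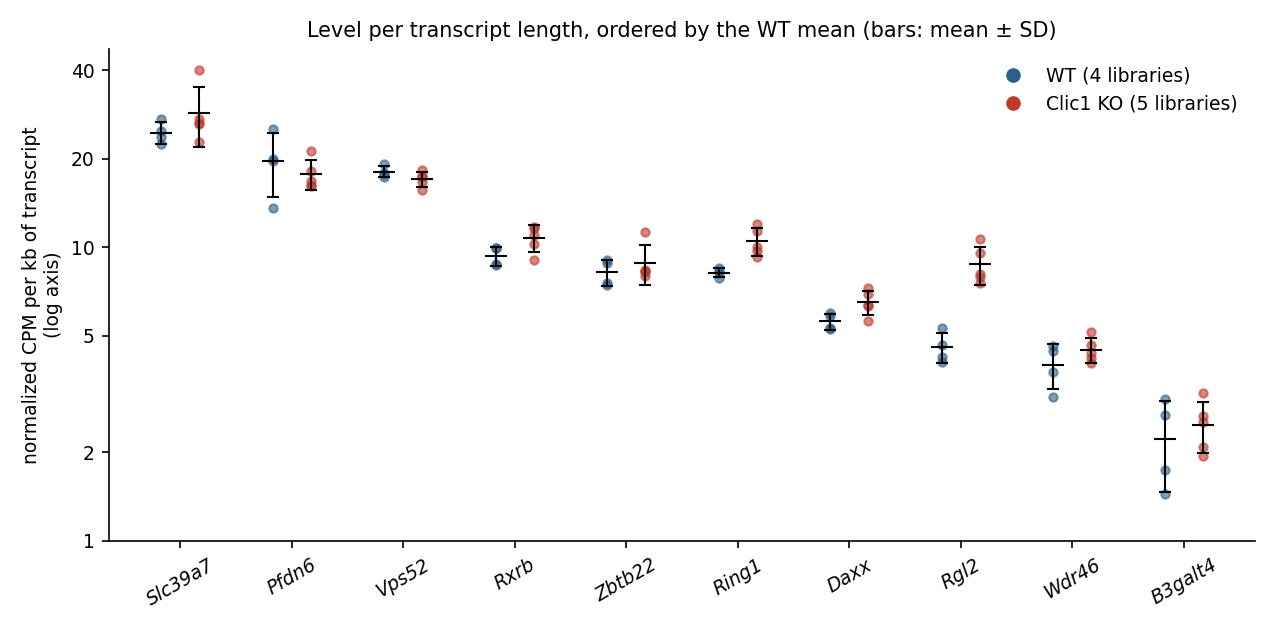
Level of the 10 genes in CPM per kb of the longest annotated transcript (vertical log axis), ordered by the WT mean, with 4 WT libraries in blue and 5 Clic1 KO libraries in red; bars are the mean ± SD. In WT libraries Rgl2 (4.57) lies between Daxx and Wdr46, and in KO libraries (8.75) it reaches the level of Zbtb22.

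Between Daxx and Rxrb lay 4 other genes of the table. Rps18 rose in KO mice by a log2 fold change of 2.06 (SE 0.19, limma adjusted p = 0.000353), and H2-K1, a class I heavy chain gene, by 1.95 (SE 0.27, limma adjusted p = 0.00887). Transcripts of the Rps18 copies Gm10260 and Gm11361 match it at over 95% identity, so its own level is uncertain. No such search was made for H2-K1, so how far reads of similar genes enter its level was not tested. WT libraries held 4.13 to 12.6 CPM of H2-K1 and KO libraries 19.4 to 32.7 CPM. Tapbp and H2-Ke6 had log2 fold changes of 0.18 and -0.46 (adjusted p of 0.844 and 0.767 in limma). Without replicate 10, which held 27.0 CPM of H2-Ke6, they were 0.24 (SE 0.11) and -0.65 (SE 0.14). The KO libraries then all lay below every WT library for H2-Ke6, though it passed the threshold in 0 of the 9 fits that omitted a mouse. Thus Vps52, which overlaps the start of Rps18, had a log2 fold change of -0.08 while that of Rps18 was 2.06, and Ring1 and Slc39a7, on either side of H2-Ke6, had 0.35 and 0.20.

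Within 1 Mb of the start of Rgl2, 58 genes other than the members were in the table. Their median log2 fold change was 0.13, with 37 higher (63.8%) and 21 lower in KO mice, beside 50.4% higher among all genes, and 4 passed the threshold in limma, beside 0.286% of all genes. Besides Rps18 and H2-K1 these were Zfp955b, a zinc finger gene with a close paralogue beside it, at 0.44 (SE 0.08, limma adjusted p = 0.0468) and Stk19 at -0.85 (SE 0.11, limma adjusted p = 0.00534). As single mice were omitted, Rps18 and Stk19 passed in 9 of 9 fits, H2-K1 in 8 and Zfp955b in 2, and with replicate 10 as WT none of the 4 did. Clic1 lies beyond this window.

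**Figure D4:**
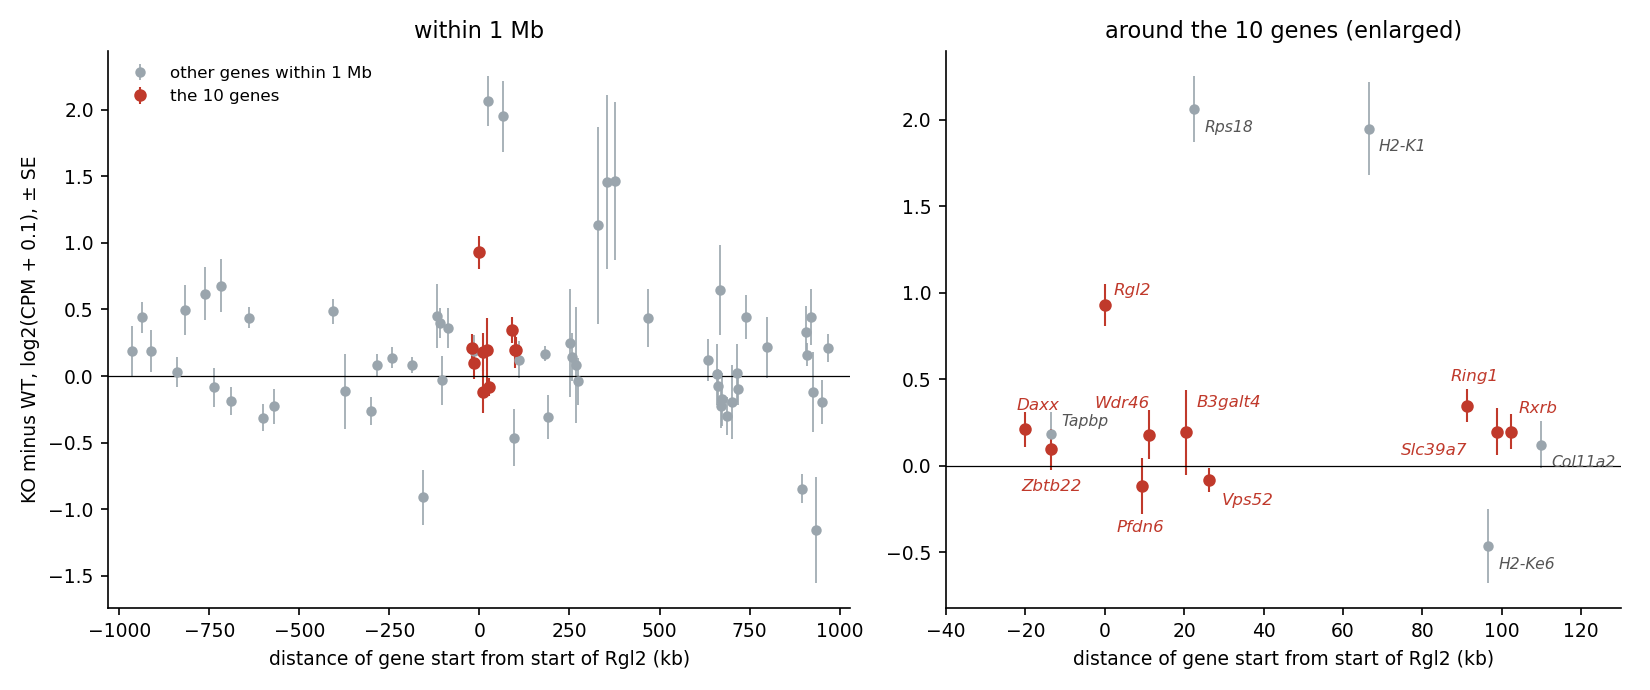
KO minus WT difference on the log2(CPM + 0.1) scale (vertical axis, bars ± standard error) against the distance of the lower gene coordinate from that of Rgl2 in kb (horizontal axis), for the 10 genes (red) and the other genes of the table within 1 Mb (grey), with the stretch around the 10 genes enlarged on the right. Rgl2 stands at 0.93 while 9 members lie between -0.12 and 0.35, and Rps18 and H2-K1, among them by position, lie at 2.06 and 1.95.

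Over all 10 partner lists, 91 of 177 genes were higher and 86 lower in KO mice, with a median log2 fold change of 0.01. The 1 gene past the threshold was Rgl1, beside 0.286% of all genes. In limma 6 had an unadjusted p under 0.05, beside 6.5% of all genes. With replicate 10 as WT the log2 fold changes of Vbp1, Slc39a12, Thra and Eipr1 moved toward 0, to -0.11, -0.06, 0.03 and 0.02. These lists were put together by function, without regard to position, but with earlier results of these data known. Zbtb12, in the Zbtb list, is also among the genes within 1 Mb of Rgl2.

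**Figure D5:**
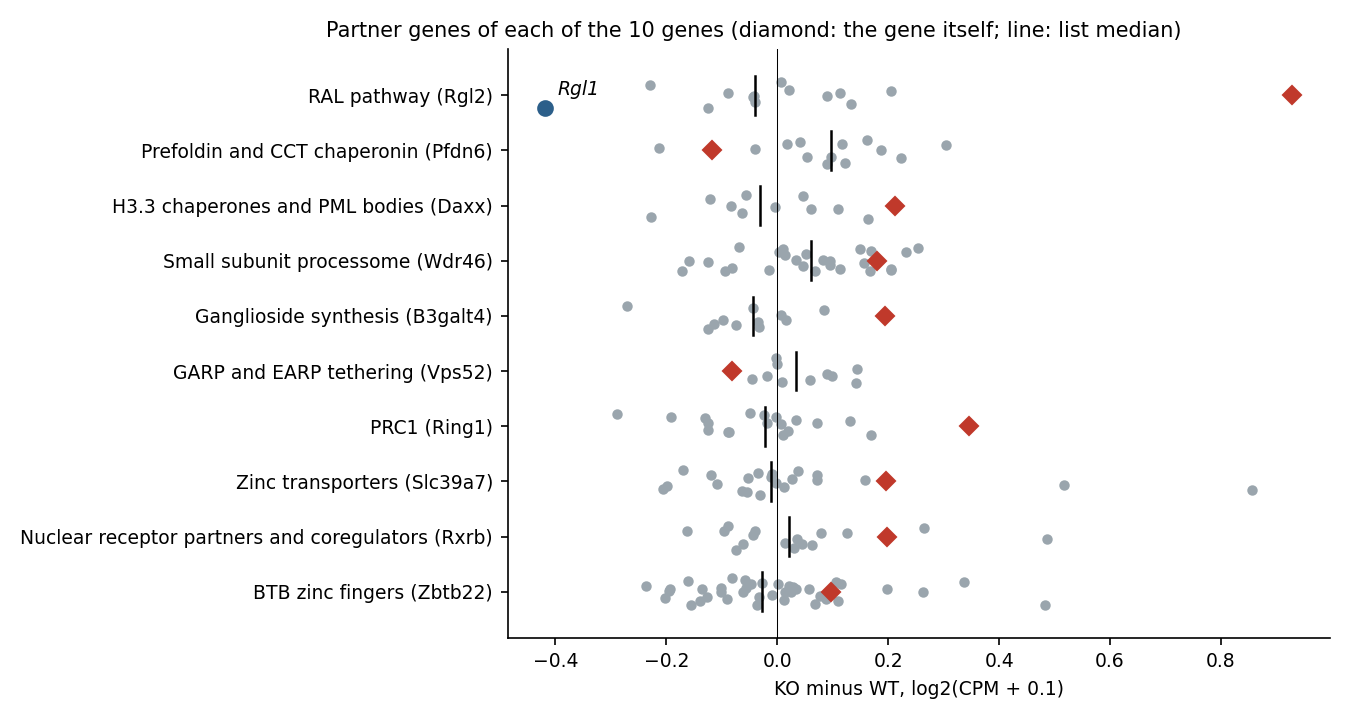
KO minus WT difference on the log2(CPM + 0.1) scale (horizontal axis) of the 177 partner genes in 10 lists (grey, 1 point a gene, black line the list median), with the member each list belongs to as a red diamond. The list medians lie between -0.04 and 0.10, Rgl2 stands to the right of its list at 0.93, and Rgl1 (blue, -0.42) is the 1 partner past the threshold.

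The genes of the whole table were also ordered by how like that of Rgl2 their profile over the 9 libraries was. Likeness was the root mean square difference between mean-centred log2(CPM + 0.1) values. Fxyd2, a sodium pump subunit gene on chromosome 9, was nearest at 0.20, then Metap1d on chromosome 2 at 0.21, Gm10309 on chromosome 17 at 0.22, Mrvi1 on chromosome 7 at 0.24 and Gm960 on chromosome 19 at 0.24. Fxyd2, Gm10309 and Gm960 were near 1 to 4 CPM in all libraries, whereas Metap1d, a mitochondrial methionine aminopeptidase gene, averaged 22.3 ± 3.81 CPM in the 5 KO and 12.9 ± 2.99 CPM in the 4 WT mice (± SD). Of the other members Ring1 was the most like Rgl2, at rank 38 of 14350 genes (0.31), followed by Rxrb at rank 292 and Daxx at rank 368. Slc39a7, Wdr46, Zbtb22, B3galt4 and Vps52 stood between ranks 2674 and 8216, and Pfdn6, which ends 1133 bases from Rgl2, stood last at rank 11501. All genes share the libraries and their totals, so this order describes these 9 mice. Likeness is not scaled, and it includes the KO and WT difference on which Rgl2 was selected. Genes with a much larger difference, such as the neighbours Rps18 (2.06) and H2-K1 (1.95), are placed far from Rgl2 whatever their pattern. The order therefore largely restates the size of each difference, and nothing about position is read from it.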

How the data were processed

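Hypothalamic RNA from 9 male mice was sequenced. Per the study's methods and the submitters' processing notes, the authors checked reads with FastQC 0.11.8, trimmed them with Trimmomatic 0.38, aligned them to GRCm38.p6 with STAR 2.5.1a and estimated reads per gene with RSEM 1.3.0, which divides reads matching several genes. The authors removed genes with few counts per M reads (CPM) and scaled the libraries with TMM in edgeR. What the authors deposited is a signal in normalized CPM for 14351 genes, with column sums of 0.988 to 1.03 M. A second table of the authors' own comparison was used only to pair identifiers with symbols. Of the columns of single libraries, 1 could be tied to no sample and was left out of all steps. Libraries were assigned by label, replicate 10 by its description.

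Because the deposited values are CPM and not counts, a model with genotype alone was fitted to log2(CPM + 0.1) by limma 3.58.1 (R 4.3.3, eBayes with a mean-variance trend) in place of the study's limma-voom. The p-values were adjusted by Benjamini-Hochberg across all 14351 genes at a threshold of 0.05. Fold changes on this scale understate the change of low genes. Whole reads could not be recovered for nearly all genes, since 81.3% to 86.6% of values up to 2.5 CPM were whole within 0.03 reads, so read numbers are estimates and no count test was run. Only the labels tell the libraries apart as samples, so p-values measure the spread between them, which may be technical in part. Estimated reads cover counting error only. The fit was tested on simulated data that held no outlying library. It recovered 38.5% of genes changed by 0.5 in log2 and 87.5% of those changed by 1. A gene that did not pass the threshold is thus not shown to be unchanged.

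The members, partner lists and marker lists were chosen with earlier results of these data known. Named genes were the members, Clic1, flanking and partner genes past the threshold, the gene with the smallest p in each partner list, and the 5 genes nearest to Rgl2 in profile. For the PRC1 list that gene is not reported here. Rala, Ralb and Ralgds were added for their roles, after their values were seen. Marker genes and the genes between members were named to describe the tissue and the locus. Positions and transcript lengths came from GENCODE M21, promoter windows from RefSeq on GRCm38.p6, and transcript matches from blastn 2.17.0 (at least 95% identity over 30% of the shorter transcript). The alternatives tried were pseudocounts of 0.5 and 1, a minimum mean of 5 CPM, a pair of other scalings, no trend, library weights, replicate 10 as WT, and omission of each mouse. All tests were two-sided.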

Additional observations from a re-analysis of the deposited data

Results flagged for a closer look

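In 10 of 64 groups of values examined, 1 library lay far from the others by Dixon's ratio at its 95% critical value, where chance gives about 1 in 20, or 3.2. In 8 of the 10 groups this library was KO replicate 10, the library with conflicting labels and the highest total.

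For the members these were Zbtb22 (29.4 CPM, the other KO libraries being at 20.8 to 21.8 CPM) and Slc39a7 (97.4 CPM against 55.6 to 66.5 CPM). Replicate 10 was likewise apart for the neighbour Rps18 (63.0 CPM against 38.6 to 43.3 CPM) and for Mrvi1, a gene with a profile like that of Rgl2 (6.92 CPM against 9.62 to 10.5 CPM). Among partner genes it was apart for Hira (85.7 CPM against 52.2 to 58.8 CPM), Bms1 (39.3 CPM against 27.4 to 30.3 CPM), St3gal1 (13.6 CPM against 23.7 to 25.6 CPM) and Thra (551 CPM against 381 to 402 CPM).

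WT replicate 9 was apart for H2-Ke6 (28.9 CPM against 20.4 to 20.7 CPM in the other WT libraries) and for Bms1 (22.5 CPM against 26.7 to 27.4 CPM).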

How the results depend on the processing

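Of 169 values of the 10 members under 17 alternatives, 167 were within 1 SD of the value reported, and 3 had another sign. This SD is the spread between libraries within the groups on the log2 scale, not the SE of the difference. Leaving out a single library can hardly move a difference by so much, so the count of 167 says little about stability. For B3galt4 this SD was 0.39, and its values ran from 0.012 to 0.36 within it. With replicate 10 grouped as WT, Zbtb22 was -0.087, Slc39a7 was -0.073 and the median of the members 0.074 (0.15 to 0.239 as each mouse was left out), and Pfdn6 was 0.015 without WT replicate 9 and -0.282 without WT replicate 3. Rgl2 stayed between 0.834 and 1.002. With replicate 10 as WT, 5 of all genes (Rgl2 not among them), 0 flanking genes and 0 partner genes passed the threshold, and Clic1 had a log2 fold change of -1.51 (adjusted p = 0.501 from limma). Genes passing numbered 27 with a mean of at least 5 CPM and 135 with library weights, in place of 41. Flanking genes numbered 7 with library weights, in place of 4, and partner genes 0 without the trend, in place of 1. As each mouse was left out, the count of all genes was 18 (without WT replicate 1) to 87 (without KO replicate 10), of flanking genes 2 to 5 and of partner genes 0 to 1, and Clic1 lay between -1.94 and -1.62. The cause of these shifts was not tested. The filter removed B3galt4 and Clic1, which then have no value. Other scalings moved the median of all genes by less than 0.01. B3galt4 had the fewest estimated reads, 20 to 62 per library. No paired analysis was run, since no label used here pairs a KO mouse with a WT mouse.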
